A study of Mus musculus with 15 samples.

Results

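The transcripts of 9 transcription factors and regulators that hold B cells in their identity, Pax5, Ebf1, Spib, Bach2, Bcl6, Irf8, Id3, Tcf3 and Ets1, were followed in mouse B cells before culture, after activation and in the CD138+ fraction, with and without the histone demethylase inhibitor GSK-J4. They were taken by gene symbol from a table of 21761 genes. All 9 were found, and all 9 had at least 1 RPKM (reads per kilobase of gene, scaled to the reads of the library) in each of the 15 libraries. RefSeq places Pax5, Bach2 and Id3 on chromosome 4, Spib on 7, Irf8 on 8, Ets1 on 9, Tcf3 on 10, Ebf1 on 11 and Bcl6 on 16.

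B cell fate is set by a small network of factors. TCF3 (E2A) and EBF1 open the B lineage programme and PAX5 then commits the cell to it and keeps other programmes silent. The Ets factors SPIB and ETS1 and the interferon regulatory factor IRF8 act in mature B cells, where BCL6 and BACH2 repress genes of the plasma cell programme and ID3 binds E proteins such as TCF3 and keeps them off DNA. When a B cell becomes an antibody-secreting cell, BLIMP-1, the product of Prdm1, represses several genes of this network, Pax5, Spib, Id3 and Bcl6 among them. GSK-J4 inhibits KDM6A and KDM6B, the enzymes that remove methyl groups from lysine 27 of histone H3, a mark of silenced genes.

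All cells came from the spleens of wild-type female C57BL/6J mice as CD43- B cells. Cultured cells received LPS, IL-2 and IL-5 together with 250 nM GSK-J4 or with DMSO, its solvent, for 3 days, and were then enriched with magnets into a CD138+ fraction, CD138 (Sdc1) being a surface marker of antibody-secreting cells, and a GL7+ fraction, GL7 being a marker of activated B cells. The 5 groups of 3 libraries were CD138+ GSK-J4, CD138+ DMSO, GL7+ GSK-J4, GL7+ DMSO and naive cells, which were neither stimulated nor treated. Replicate numbers name the mouse, except that the third CD138+ GSK-J4 library carries the number 4 in the table and could not be tied to a mouse. It is called replicate 4 here. The labels list a replicate 3 of that group, for which the table had no column.

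Depth, recovered from the values, was 6241190 to 7712460 reads in CD138+ GSK-J4 libraries, 9676864 to 11636062 in CD138+ DMSO, 9174650 to 12212845 in GL7+ GSK-J4, 9806350 to 11519384 in GL7+ DMSO and 1318002 to 13190023 in naive libraries, of which replicate 2 was the shallowest. No member fell below 14 reads in any library. The B cell markers Ms4a1, Cd79a and Cd79b were present in every library, with a sum of 723 to 756 RPKM in CD138+ GSK-J4, 862 to 924 in CD138+ DMSO, 916 to 1041 in GL7+ GSK-J4, 1204 to 1238 in GL7+ DMSO and 2278 to 2883 in naive cells. Markers of other blood cells were low in the cultured cells, where the sums stayed at or below 4.63 RPKM for 10 T cell genes, 0.563 for 6 NK cell genes and 4.35 for 10 myeloid genes. Naive libraries held more of each, with sums of 22.8 to 29.8, 4.69 to 9.11 and 60.8 to 97.0 RPKM, and 7 erythroid or platelet genes summed to at most 9.74 RPKM in cultured cells and 73.2 to 86.2 in naive cells. At 0 in every library were 4 T cell, 3 NK cell and 3 myeloid genes in CD138+ GSK-J4 and 3, 1 and 3 in CD138+ DMSO, and none in naive cells. The sum of 8 dendritic cell genes, most of it Flt3 in cultured cells, was 6.65 to 7.92 RPKM in CD138+ GSK-J4, 11.0 to 12.3 in CD138+ DMSO, 21.4 to 22.4 in GL7+ GSK-J4, 31.6 to 33.4 in GL7+ DMSO and 28.9 to 31.4 in naive cells.

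Promoter sequences are shown for Id3, Spib and Pax5, the 3 members with the lowest ratio of GSK-J4 to DMSO in CD138+ cells. RefSeq (GRCm38.p6, another build than the mm9 of the expression table) held a promoter window of 300 bases, from 250 before to 50 after the start site, for 8 of the 9 members, 11 windows in all. Windows were searched on both strands for the BLIMP-1 type site AGNGAAAG, the E-box CAGNTG bound by E proteins, a joint Ets and IRF site (GGAA and GAAA with NN between them) and the Ets site GAGGAA, motifs that were chosen after the expression values were known. Capitals mark the match, which is on the opposite strand in Pax5 and Id3.
Pax5 (chr4:44710645-44710944, minus strand, AGNGAAAG): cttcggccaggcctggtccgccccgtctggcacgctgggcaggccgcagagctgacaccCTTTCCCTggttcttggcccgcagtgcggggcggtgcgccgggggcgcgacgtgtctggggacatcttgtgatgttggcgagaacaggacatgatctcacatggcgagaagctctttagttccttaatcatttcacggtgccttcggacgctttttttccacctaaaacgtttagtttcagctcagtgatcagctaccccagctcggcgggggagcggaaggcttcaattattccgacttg
Spib (chr7:44532022-44532321, minus strand, CAGNTG): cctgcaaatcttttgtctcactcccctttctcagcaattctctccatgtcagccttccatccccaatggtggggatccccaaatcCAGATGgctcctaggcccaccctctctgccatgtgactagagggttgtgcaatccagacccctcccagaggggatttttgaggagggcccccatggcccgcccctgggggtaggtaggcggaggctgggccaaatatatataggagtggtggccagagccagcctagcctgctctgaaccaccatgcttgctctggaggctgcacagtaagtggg
Id3 (chr4:136143572-136143871, plus strand, GAGGAA): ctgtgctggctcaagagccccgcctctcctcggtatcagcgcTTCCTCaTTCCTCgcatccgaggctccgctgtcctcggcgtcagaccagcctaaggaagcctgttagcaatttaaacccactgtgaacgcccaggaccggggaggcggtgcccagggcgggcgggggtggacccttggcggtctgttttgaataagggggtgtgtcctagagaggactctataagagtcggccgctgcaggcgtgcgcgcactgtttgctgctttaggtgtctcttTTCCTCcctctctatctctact
The match in Pax5 starts at -191 from the start site and that in Spib at -165, while Id3 held 3 matches, which start at -208, -201 and 29. AGNGAAAG was found in 3 of the 11 windows (1 each of Pax5, Ebf1 and Bach2, where it overlaps a match to the joint site) and in 8.63% of 32851 promoters. CAGNTG was found in 2 of 11 windows (Spib and Irf8) and 51.4% of promoters, the joint site in 2 of 11 (Bach2 and Bcl6) and 2.72%, and GAGGAA in 3 of 11 (Id3, Bcl6 and Ebf1) and 28.3%. Ebf1, Bcl6 and Irf8 have 2 windows each. Such a match is a run of letters and no measure of binding.

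**Figure D1:**
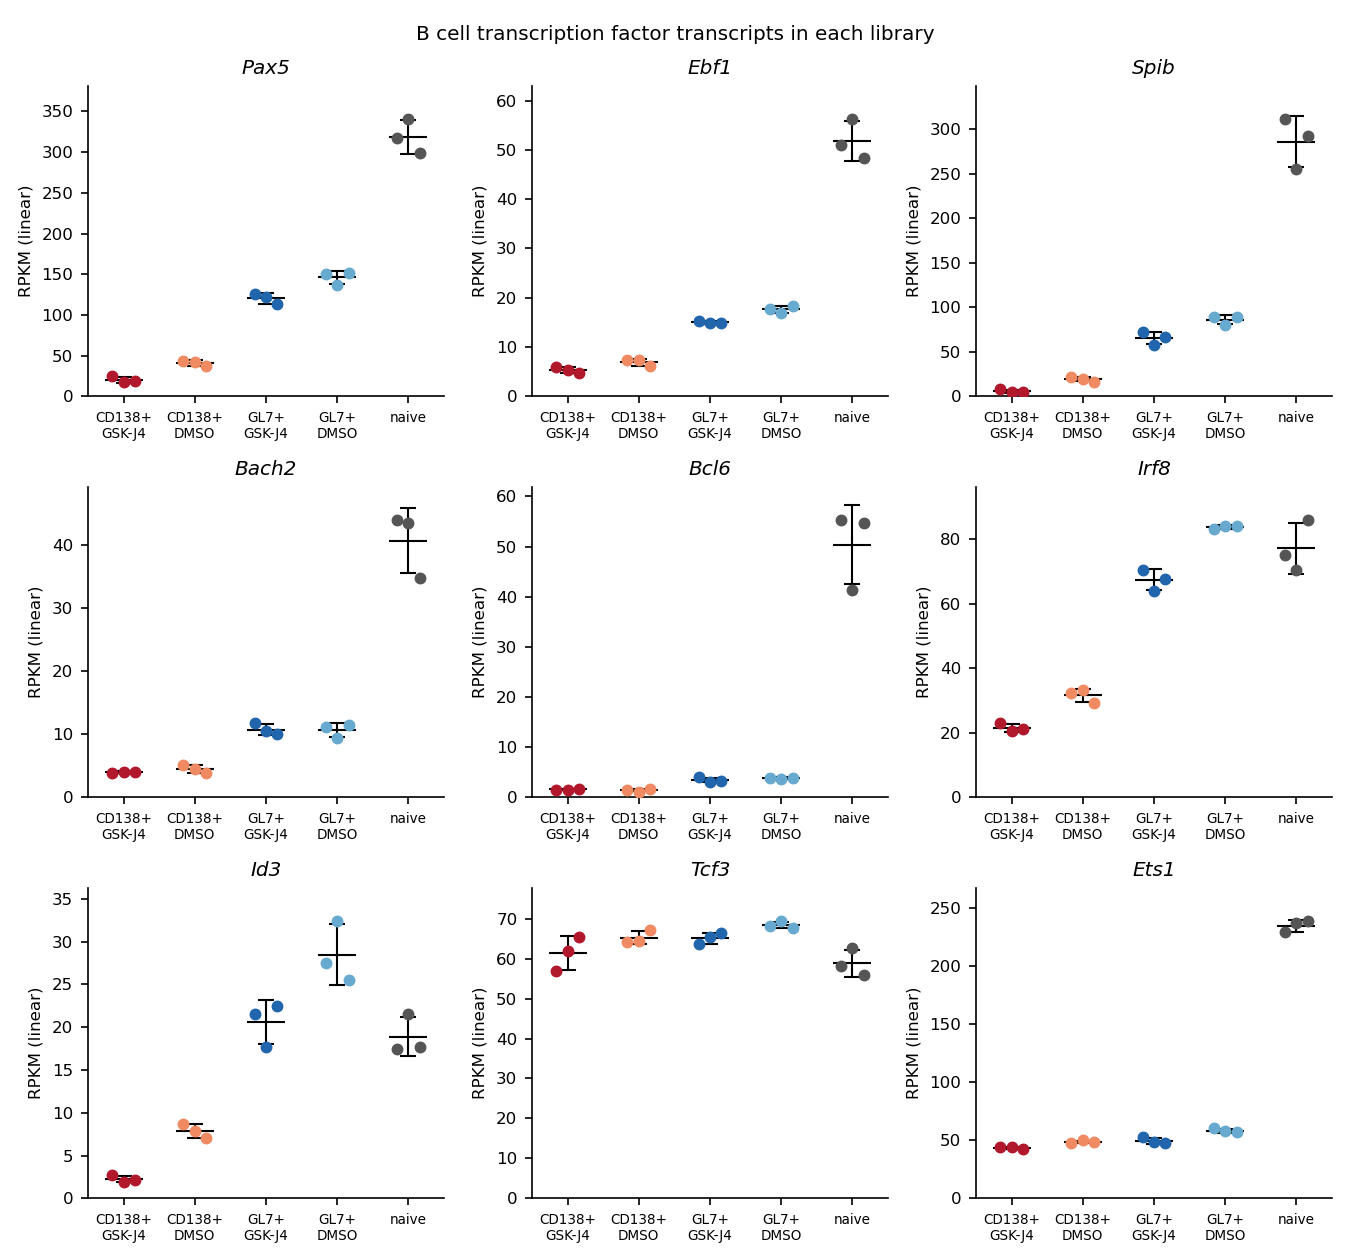
RPKM of each member (linear axis from 0, own scale per panel) in the 3 libraries of each group, with CD138+ GSK-J4 and CD138+ DMSO at the left, then GL7+ GSK-J4, GL7+ DMSO and naive cells. Points are libraries, wide bars means and whiskers 1 SD. Bcl6 averaged 1.58, 1.41, 3.43 and 3.86 RPKM in the 4 cultured groups against 50.4 in naive cells, while the group means of Tcf3 lay between 58.9 and 68.4 RPKM.

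The first comparison asked how the members stood in the CD138+ fraction against the GL7+ fraction of the same DMSO cultures. Of the 9 members 8 were lower in CD138+ cells and none higher, with Spib (-2.11 on the log2 scale), Pax5 (-1.81) and Id3 (-1.73) lowest and Tcf3 alone short of the threshold of an adjusted p under 0.05. Over all genes tested 58.7% passed, 36.9% as lower and 21.8% as higher. The median of the 9 changes was -1.24, against -0.10 over the 10866 genes tested. These are log2(RPKM + 1) differences, which understate the change of low genes, and adjusted p-values are from limma.

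Pax5, the commitment factor, had 43.6, 42.4 and 37.4 RPKM in CD138+ DMSO libraries, against 151, 137 and 151 in GL7+ DMSO libraries. Its CD138+ level was 28.1% of the GL7+ level (log2 change -1.81 ± 0.103 SE, adjusted p = 2.6e-09). Ebf1, the factor that acts upstream of it, averaged 6.93 ± 0.711 RPKM in CD138+ cells and 17.7 ± 0.676 in GL7+ cells (SD, n = 3 each), a log2 change of -1.24 (adjusted p = 8.4e-09). The E protein gene Tcf3 differed little, with 65.2 ± 1.59 RPKM in CD138+ and 68.4 ± 0.854 in GL7+ cells (-0.07, adjusted p = 0.29), and its sign turned with median-of-ratios scaling (0.04, adjusted p = 0.6).

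Spib, an Ets factor of B cells, had 21.4, 19.6 and 16.6 RPKM in CD138+ DMSO libraries, against 88.7, 80.6 and 89.1 in GL7+ DMSO libraries, a log2 change of -2.11 ± 0.139 (adjusted p = 1.1e-08). Ets1, which restrains plasma cell formation, was only slightly lower, at 48.8 ± 1.01 RPKM in CD138+ and 58.3 ± 1.82 in GL7+ cells (-0.25, adjusted p = 0.0002). Irf8, a partner of Ets factors, had 32.3, 33.3 and 29.4 RPKM in CD138+ and 83.1, 84.0 and 84.2 in GL7+ libraries (-1.38 ± 0.0696, adjusted p = 8.2e-10). For these members no CD138+ library reached the lowest GL7+ library.

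Among the repressors of the plasma cell programme, Bach2 averaged 4.47 ± 0.576 RPKM in CD138+ cells and 10.7 ± 1.08 in GL7+ cells (log2 change -1.10, adjusted p = 3.8e-07). Bcl6 averaged 1.41 ± 0.230 RPKM in CD138+ cells and 3.86 ± 0.117 in GL7+ cells (-1.01, adjusted p = 2e-06). Id3, the inhibitor of E proteins, had 8.68, 7.85 and 7.07 RPKM in CD138+ libraries and 27.5, 32.4 and 25.5 in GL7+ libraries (-1.73 ± 0.120, adjusted p = 1.8e-08). Values did not overlap between the fractions for any of the 9 members, Tcf3 included, all 9 being lower in CD138+ cells, as were 44.8% of all genes. Alongside, the plasma cell regulators rose, Prdm1 with 128 ± 2.93 RPKM in CD138+ and 37.2 ± 2.07 in GL7+ cells and Xbp1, a factor of the secretory programme, with 839 ± 49.3 and 200 ± 8.90 in the same order of groups (adjusted p = 3.2e-09 and 3e-10). In bulk RNA fewer cells of a type and less RNA per cell cannot be told apart. With median-of-ratios scaling 49.6% of the calls over all genes were higher in CD138+ cells, against 37.2% on the deposited scale.

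Against naive cells, the members were not alike in the 2 fractions, which come from the same cultures and are no series in time. In GL7+ DMSO cells 6 of 9 were lower and 2 higher, where 40.3% and 41.3% of all genes were (81.7% in all), and in CD138+ DMSO cells 8 were lower and 1 higher, where 43.5% and 39.9% were (83.4% in all). Values lay below every naive value for 6 members in GL7+ and 8 in CD138+ cells, and for 40.0% and 42.8% of all genes. The member medians were -1.50 and -2.74, against 0.01 and -0.05 over all genes. Both comparisons use the same naive libraries.

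Bcl6 was the member with the lowest ratio, with 3.94, 3.72 and 3.91 RPKM in GL7+ DMSO libraries, against 55.3, 41.3 and 54.6 in naive libraries. That is 7.65% of the naive level in GL7+ cells and 2.80% in CD138+ DMSO cells (log2 changes -3.39 and -4.41). Ets1 had 60.3, 57.8 and 56.8 RPKM in GL7+ DMSO libraries, against 229, 237 and 239 in naive libraries (-1.99 ± 0.0442, adjusted p = 1.2e-14). For Ets1 most of the difference from naive cells was thus also seen in the GL7+ fraction, where it stood at 24.8% of the naive level, against 20.8% in CD138+ cells.

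Pax5 averaged 41.1 ± 3.31 RPKM in CD138+ DMSO, 146 ± 8.02 in GL7+ DMSO and 319 ± 21.0 in naive cells, so that the CD138+ and GL7+ cells had 12.9% and 45.9% of the naive level. Spib averaged 19.2 ± 2.43 RPKM in CD138+ DMSO, 86.1 ± 4.80 in GL7+ DMSO and 286 ± 28.6 in naive cells (6.70% and 30.1%). Ebf1 had 13.4% in CD138+ and 34.1% in GL7+ DMSO cells of the 51.8 ± 4.03 RPKM of naive cells, and Bach2 11.0% and 26.3% of their 40.6 ± 5.19 RPKM. Among these 4 genes every GL7+ value lay below every naive value and above every CD138+ value.

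Irf8, Id3 and Tcf3 were not called lower in GL7+ than in naive cells on the deposited scale. Id3 averaged 28.4 ± 3.55 RPKM in GL7+ DMSO and 18.9 ± 2.26 in naive cells (log2 change 0.57, adjusted p = 0.0005), while CD138+ DMSO cells at 7.86 ± 0.803 had 41.6% of the naive level. Irf8 averaged 83.8 ± 0.544 RPKM in GL7+ DMSO and 77.1 ± 7.90 in naive cells, which overlapped (0.12, adjusted p = 0.12). It passed as higher without naive replicate 3 (0.20, adjusted p = 0.01) and as lower with quantile normalization (-0.20, adjusted p = 0.0095), so its direction there depends on the scaling. Tcf3 was slightly higher in both cultured fractions than the 58.9 ± 3.40 RPKM of naive cells (0.22, adjusted p = 0.0017 in GL7+, and 0.15, adjusted p = 0.019 in CD138+). Both turned to lower with quantile normalization (-0.09 and -0.11), and the CD138+ call was lost without CD138+ DMSO replicate 3 or naive replicate 3 (adjusted p = 0.069 and 0.083). The naive libraries also held the T, NK, myeloid and erythroid transcripts given above, whose part in these differences was not tested. Without the shallow naive replicate 2, all 8 calls in GL7+ and all 9 in CD138+ cells held.

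In the CD138+ fraction some members stood with GSK-J4 at a small part of their DMSO level and others near it. Spib and Id3 stood at 30.8% and 28.6% of their DMSO level, Pax5 at 49.4%, Irf8 at 68.2%, Ebf1 at 76.9% and Ets1 at 89.3%, while Bach2, Bcl6 and Tcf3 missed the threshold. Thus 6 of 9 members fell and none rose, where 13.2% of all genes passed, 8.61% as lower and 4.61% as higher (no member rose by voom or at an unadjusted p under 0.05 either). The member median was -0.32, against -0.03 over all genes.

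Pax5 had 24.9, 17.8 and 18.3 RPKM in CD138+ GSK-J4 libraries, against 43.6, 42.4 and 37.4 in CD138+ DMSO libraries. The log2 change was -0.99 ± 0.103 (adjusted p = 4.1e-05), and the highest treated library, replicate 1, was still below the lowest DMSO library. Ebf1 had 5.94, 5.25 and 4.80 RPKM in GSK-J4 and 7.32, 7.35 and 6.11 in DMSO libraries, which came close without overlap (-0.32 ± 0.0795, adjusted p = 0.016). The call for Ebf1 was lost with quantile normalization (adjusted p = 0.052), with mice as blocks (0.059), in a fit of these groups alone (0.069), and without CD138+ GSK-J4 replicate 4 (0.068) or CD138+ DMSO replicate 1 or 2 (0.07 each). In the block fit CD138+ GSK-J4 replicate 4, tied to no mouse, formed a block of its own and so dropped out. Tcf3 averaged 61.4 ± 4.24 RPKM with GSK-J4 and 65.2 ± 1.59 with DMSO, overlapping (-0.09, 95% interval -0.20 to 0.03, adjusted p = 0.32).

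Spib had 7.82, 4.89 and 5.02 RPKM in CD138+ GSK-J4 libraries, against 21.4, 19.6 and 16.6 in CD138+ DMSO libraries (log2 change -1.57 ± 0.139, adjusted p = 9.6e-06). These levels rested on 95 to 136 reads per GSK-J4 library and 507 to 637 per DMSO library. The other Ets member, Ets1, averaged 43.6 ± 0.721 RPKM with GSK-J4 and 48.8 ± 1.01 with DMSO, without overlap (-0.16 ± 0.0442, adjusted p = 0.028). Its small difference did not keep the threshold with median-of-ratios scaling (adjusted p = 0.072), with the block (0.1), or without CD138+ GSK-J4 replicate 1, 2 or 4 (0.054, 0.064 and 0.089) or CD138+ DMSO replicate 1, 2 or 3 (0.06, 0.11 and 0.071). Irf8 had 23.0, 20.6 and 21.1 RPKM with GSK-J4 and 32.3, 33.3 and 29.4 with DMSO, well apart (-0.53 ± 0.0696, adjusted p = 0.00025).

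Id3 had 2.69, 1.91 and 2.16 RPKM in CD138+ GSK-J4 libraries, against 8.68, 7.85 and 7.07 in CD138+ DMSO libraries, and no member had a lower ratio in this comparison. The log2 change was -1.45 ± 0.120 (adjusted p = 5.7e-06), from 14 to 16 reads per GSK-J4 library and 74 to 87 per DMSO library. The repressors missed the threshold. Bach2 had 3.89, 4.08 and 4.05 RPKM with GSK-J4 and 5.06, 4.44 and 3.90 with DMSO, which overlapped (-0.12, 95% interval -0.34 to 0.10, adjusted p = 0.48), and Bcl6 averaged 1.58 ± 0.103 RPKM with GSK-J4 and 1.41 ± 0.230 with DMSO (0.10, interval -0.13 to 0.34, adjusted p = 0.61).

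Values of the 6 members that fell did not overlap between treatments, as was so for 22.4% of all genes in that direction. Pax5, Spib, Id3 and Irf8 passed in every alternative setting and without each single library. Markers moved in the same comparison: the B cell marker sum was lower in all CD138+ GSK-J4 libraries (723 to 756 RPKM against 862 to 924 with DMSO), with Ms4a1 (CD20) at 44.3 ± 4.79 against 67.9 ± 2.04 RPKM (-0.61, adjusted p = 0.00032). The sum of 5 plasma cell markers was higher, at 2780 to 2961 RPKM against 2554 to 2731 with DMSO. Most of this sum was Jchain and Xbp1. Jchain and Prdm1 lay above every DMSO value, while Xbp1, Sdc1 and Slamf7 overlapped between treatments. The part of the B cell and plasma cell markers in the members' changes was not tested. Of the calls over all genes, 46.7% were higher with quantile normalization against 34.9% on the deposited scale.

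**Figure D2:**
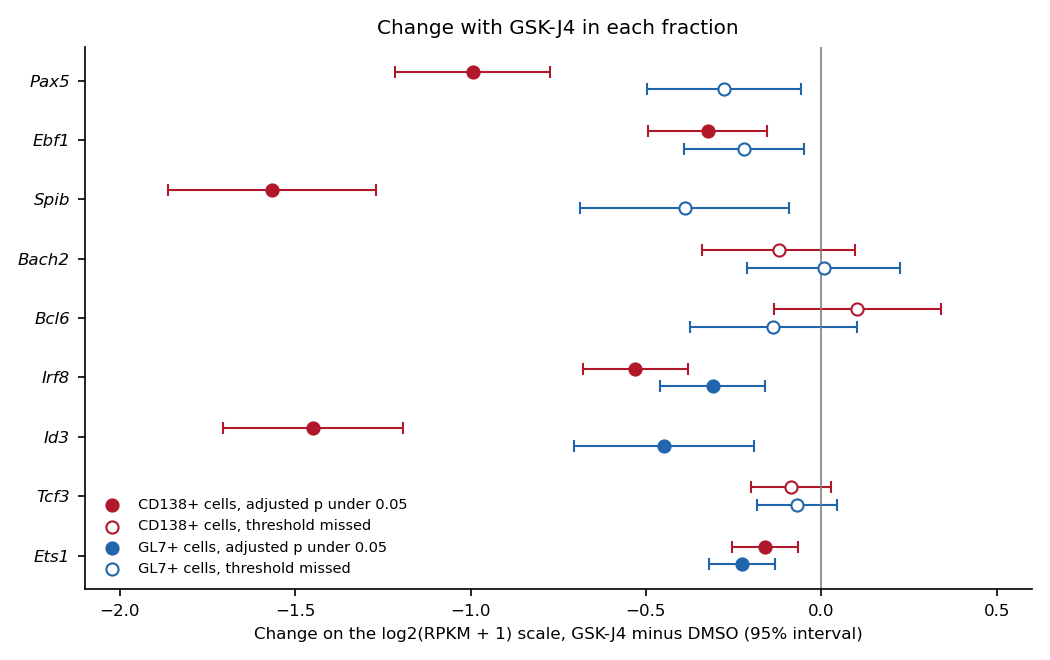
Change of each member with GSK-J4 against DMSO on the log2(RPKM + 1) scale, in CD138+ cells (red, upper) and GL7+ cells (blue, lower), from limma with 95% intervals. Filled points have an adjusted p under 0.05. Spib, Id3 and Pax5 lie at -1.57, -1.45 and -0.99 in CD138+ cells and at -0.39, -0.45 and -0.28 in GL7+ cells.

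In the GL7+ fraction no member changed by more than the 0.45 on the log2 scale seen for Id3. Irf8, Id3 and Ets1 were lower with GSK-J4 and no member was higher, by voom or at an unadjusted p under 0.05 either, so 3 of 9 passed as lower where 7.71% of all genes did (5.81% higher, 13.5% in all). The member median was -0.23, against -0.01 over all genes. Irf8 had 70.4, 64.1 and 67.8 RPKM in GL7+ GSK-J4 libraries and 83.1, 84.0 and 84.2 in GL7+ DMSO libraries, a log2 change of -0.31 ± 0.0696 (adjusted p = 0.01). Its call was lost without GL7+ GSK-J4 replicate 2 (adjusted p = 0.052).

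Id3 had 21.5, 17.7 and 22.5 RPKM with GSK-J4 and 27.5, 32.4 and 25.5 with DMSO, so replicate 2 gave both extremes (log2 change -0.45 ± 0.120, adjusted p = 0.024). It was lost without GL7+ GSK-J4 replicate 2 (adjusted p = 0.12) or GL7+ DMSO replicate 1 or 2 (0.06 and 0.099), and without the filter on low values (0.05). Ets1 had 52.8, 48.3 and 48.1 RPKM with GSK-J4 and 60.3, 57.8 and 56.8 with DMSO (-0.23 ± 0.0442, adjusted p = 0.0044), and it alone among the members held in every alternative.

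Pax5 had 126, 122 and 113 RPKM with GSK-J4 and 151, 137 and 151 with DMSO in GL7+ cells, apart from each other but short of the threshold (log2 change -0.28, 95% interval -0.50 to -0.06, adjusted p = 0.091). Spib had 72.3, 58.1 and 66.6 RPKM with GSK-J4 and 88.7, 80.6 and 89.1 with DMSO (-0.39, interval -0.69 to -0.09, adjusted p = 0.079). Ebf1 had 15.3, 14.9 and 14.8 RPKM with GSK-J4 and averaged 17.7 ± 0.676 with DMSO (-0.22, interval -0.39 to -0.05, adjusted p = 0.082). All 3 passed in a fit of the contrast's own groups (0.02, 0.023 and 0.02) and with voom on recovered reads (0.0048, 0.0022 and 0.013), Spib also with mice as blocks (0.022), and single libraries of other groups also decided these calls. Pax5 and Spib passed without CD138+ GSK-J4 replicate 1 (0.018 and 0.02), and Ebf1 without naive replicate 2 (0.047).

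Bach2 averaged 10.7 ± 0.890 RPKM with GSK-J4 and 10.7 ± 1.08 with DMSO in GL7+ cells (log2 change 0.01, 95% interval -0.21 to 0.23, adjusted p = 0.98), and Bcl6 3.43 ± 0.467 and 3.86 ± 0.117 in the same order (-0.14, interval -0.37 to 0.10, adjusted p = 0.47). Tcf3 averaged 65.1 ± 1.40 RPKM with GSK-J4 and 68.4 ± 0.854 with DMSO (-0.07, adjusted p = 0.43). Values of 7 members, Pax5, Ebf1, Spib, Irf8, Id3, Tcf3 and Ets1, did not overlap and were lower with GSK-J4, as was so for 21.6% of all genes. The B cell marker sum was also lower, at 916 to 1041 RPKM against 1204 to 1238 with DMSO, and the plasma cell marker sum higher, at 640 to 723 against 497 to 557 RPKM, and their part in the members' values was not tested. With median-of-ratios scaling 58.7% of the calls over all genes were higher, against 42.95% on the deposited scale.

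Within a mouse, cultures with and without the inhibitor can be set side by side. In CD138+ cells of mouse 1 and mouse 2, Spib stood at 36.6% and 24.9% of the DMSO level, Id3 at 31.0% and 24.3%, Pax5 at 57.2% and 42.0%, and Irf8 at 71.3% and 61.9%. For each of these genes mouse 2 had the lower percentage, as for Ebf1 (81.1% and 71.4%) and Ets1 (91.7% and 88.0%). Bach2 (76.9% and 91.8%), Bcl6 (100% and 134%) and Tcf3 (88.9% and 95.9%) were higher in mouse 2. In GL7+ cells of mice 1, 2 and 3, Pax5 stood at 83.7%, 89.1% and 75.0%, Spib at 81.6%, 72.1% and 74.7%, and Id3 at 78.3%, 54.8% and 88.4%, all below their DMSO level. Bach2 stood at 105%, 110% and 87.5%, on both sides of it.

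**Figure D3:**
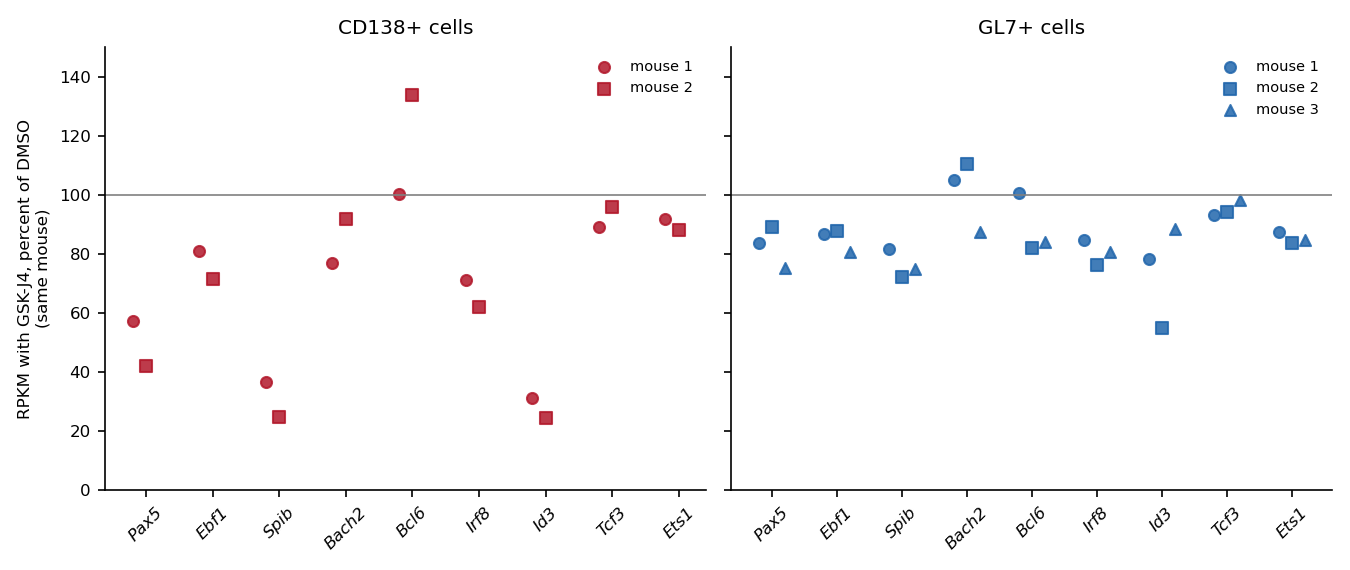
RPKM with GSK-J4 as a percentage of the DMSO value of the same mouse and fraction, for each member, in CD138+ cells (left, 2 mice) and GL7+ cells (right, 3 mice); symbols mark the mouse, and the grey line is 100. Spib and Id3 lie between 24.3 and 36.6 in CD138+ cells and between 54.8 and 88.4 in GL7+ cells.

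Whether the change with GSK-J4 differed between the 2 fractions was tested as the difference of the changes. Cells were enriched into fractions after treatment, so a different response and a different make-up of a fraction cannot be told apart. The difference was negative and past the threshold for Spib (-1.18 ± 0.196, adjusted p = 0.017), Id3 (-1.0 ± 0.169, adjusted p = 0.017) and Pax5 (-0.72 ± 0.145, adjusted p = 0.033), 3 of 9 members, where 0.644% of all genes were called lower and 0.966% in either direction. Irf8 had a difference of -0.22 (95% interval -0.43 to -0.01, adjusted p = 0.35), Ebf1 of -0.10 (-0.34 to 0.14), Bach2 of -0.13 (-0.44 to 0.18), Bcl6 of 0.24 (-0.10 to 0.57), Tcf3 of -0.02 (-0.18 to 0.14) and Ets1 of 0.07 (-0.07 to 0.20), all short of it.

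These calls were near the threshold. With mice as blocks Spib alone was called, and Pax5 and Id3 were not (adjusted p = 0.067 and 0.063). That fit also lost CD138+ GSK-J4 replicate 4, so pairing and the loss of a library cannot be told apart there. Spib was lost without CD138+ GSK-J4 replicate 2, CD138+ DMSO replicate 1 or GL7+ GSK-J4 replicate 3 (0.052, 0.052 and 0.063). Id3 was lost without CD138+ GSK-J4 replicate 2, CD138+ DMSO replicate 1, GL7+ GSK-J4 replicate 3 or GL7+ DMSO replicate 1 or 3 (0.053, 0.053, 0.066, 0.055 and 0.052). Pax5 was lost without the filter (0.074), with quantile normalization (0.054), and without CD138+ GSK-J4 replicate 2 or 4 (0.087 and 0.075), CD138+ DMSO replicate 1 or 2 (0.097 and 0.085), any GL7+ GSK-J4 replicate (0.081, 0.073 and 0.074) or any GL7+ DMSO replicate (0.085, 0.076 and 0.075). The estimates themselves stayed between -1.37 and -1.07 for Spib, -1.10 and -0.92 for Id3 and -0.87 and -0.63 for Pax5 without single libraries.

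Under GSK-J4 the 2 fractions were further apart for these genes. Spib stood in CD138+ GSK-J4 cells at 9.0% of its GL7+ GSK-J4 level, against 22.3% for the same ratio under DMSO, Id3 at 10.9% against 27.6%, and Pax5 at 16.9% against 28.1%. With GSK-J4 8 members were lower in CD138+ than in GL7+ cells, where 39.0% of all genes were lower, 24.0% higher and 63.0% passed in all. The same 8 did not overlap, as was so for 43.1% of all genes in that direction. Tcf3 missed the threshold (-0.08, adjusted p = 0.18), with a sign that turned with median-of-ratios scaling (0.01), which also ended the call for Ets1 (-0.18, adjusted p = 0.0021, and -0.09, adjusted p = 0.11 with that scaling). The comparisons with DMSO and between fractions share libraries, so their values are given side by side and not as separate evidence.

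From the lowest group up, Pax5, Ebf1 and Spib had 1 order, CD138+ GSK-J4, CD138+ DMSO, GL7+ GSK-J4, GL7+ DMSO and naive, with no overlap between neighbours. The share of all genes with this order was not counted, so it cannot be called particular to these members. Genes outside the members, such as Cyb561a3 and Gmip, which were picked for their likeness to Pax5 and Ebf1, had the same order of means. Bach2 and Bcl6 overlapped between treatments within each fraction, and each fraction was clear of the other and of naive cells. Ets1 overlapped between GL7+ GSK-J4 and CD138+ DMSO. Irf8 overlapped between GL7+ DMSO and naive cells and Id3 between GL7+ GSK-J4 and naive cells, and Tcf3 overlapped between every pair of neighbours except CD138+ DMSO and GL7+ DMSO at the top. RPKM is scaled by the gene length in the table, so any comparison of levels between genes rests on these lengths, whose annotation is not given. For Pax5 that length is 1208 bases, on which its place among the members rests.

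Relatives of the members were read in the same fit. Beside the list counts that follow, GSK-J4 gave 8.61% of all genes as lower and 4.61% as higher in CD138+ cells. In GL7+ cells these shares were 7.71% and 5.81%. In CD138+ cells none of 10 other Ets genes tested (of 11 listed) passed with limma, while 3 were higher at an unadjusted p under 0.05 and 1 by voom, and the list median was 0.05. Of 7 other IRF genes 1 passed, Irf2, which was higher by 0.18 (adjusted p = 0.014, lost without CD138+ DMSO replicate 1 or 3 or CD138+ GSK-J4 replicate 2 at 0.055, 0.06 and 0.067). In GL7+ cells Irf4, a factor of plasma cell differentiation, rose to 167 ± 6.90 RPKM with GSK-J4, against 127 ± 2.23 with DMSO (log2 change 0.39, adjusted p = 0.00072). Ets2 rose by 0.26 there (adjusted p = 0.015, 0.071 without GL7+ GSK-J4 replicate 2), while no Ets gene passed as lower, against 2 by voom and 3 at an unadjusted p under 0.05. Irf2 fell by 0.15 in the GL7+ cells (adjusted p = 0.032). The Irf2 call in GL7+ cells was lost with median-of-ratios scaling (0.093) and without GL7+ GSK-J4 replicate 2 or 3 (0.089 and 0.13) or GL7+ DMSO replicate 1, 2 or 3 (0.061, 0.095 and 0.099).

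Of 5 listed genes of the E protein network 3 were tested, and Tcf12, the E protein HEB, rose in both fractions. It had 28.7 ± 1.44 RPKM in CD138+ GSK-J4 and 23.5 ± 0.337 in CD138+ DMSO cells (log2 change 0.27, adjusted p = 0.0025), and 21.2 ± 0.251 in GL7+ GSK-J4 and 17.7 ± 0.612 in GL7+ DMSO cells (0.24, adjusted p = 0.006). Both calls held in every alternative. Of 9 partners of BCL6 and BACH2, Mafk, a small MAF protein that pairs with BACH2, fell in CD138+ cells to 4.21 ± 0.588 RPKM with GSK-J4, against 6.23 ± 0.296 with DMSO (-0.48, adjusted p = 0.0012). None of the 9 passed as higher there, while 2 did so by voom and 2 at an unadjusted p under 0.05. None of the 9 passed in GL7+ cells, whether by limma, at an unadjusted p under 0.05, or by voom.

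Among 16 other B lineage factors 4 fell and 1 rose in CD138+ cells, and 2 of the falls, Hhex and Bcl11a, and the rise held in every alternative. The falls of Ikzf1 (Ikaros) and Runx3 were both lost with median-of-ratios scaling (adjusted p = 0.053 and 0.077) and without CD138+ GSK-J4 replicate 4 (0.052 and 0.059) or CD138+ DMSO replicate 1 (0.053 and 0.09). Ikzf1 was also lost with mice as blocks (0.094), and Runx3 with quantile normalization (0.088) and without CD138+ GSK-J4 replicate 2 (0.092) or CD138+ DMSO replicate 2 (0.12). Hhex, a homeobox factor, had 2.72 ± 0.539 RPKM with GSK-J4 and 6.00 ± 0.212 with DMSO (log2 change -0.92, adjusted p = 0.00011), and Bcl11a, a zinc finger factor needed for B cell development, 2.97 ± 0.396 and 5.74 ± 0.636 in the same order (-0.76, adjusted p = 7e-05). Pou2af1, the B cell coactivator OBF-1, rose by 0.22 (adjusted p = 0.0085). The list's median was -0.0038. At an unadjusted p under 0.05 the CD138+ comparison had 4 of these genes lower and 4 higher, and voom called 4 lower and 2 higher. In GL7+ cells 3 fell and 2 rose, of which the rise of Gfi1, a repressor in blood cells, to 1.76 ± 0.298 RPKM with GSK-J4 against 0.901 ± 0.116 with DMSO, was the 1 call that held in every alternative (0.53, adjusted p = 0.0072).

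Genes that PAX5 is known to activate were read beside Pax5 itself, of which Cd79a is also among the B cell markers above. In CD138+ cells 5 of 13 fell with GSK-J4 and 3 rose, and all 5 falls held in every alternative. Fcer2a (CD23) had 1.76 ± 0.170 RPKM with GSK-J4 and 8.82 ± 1.36 with DMSO (log2 change -1.83, adjusted p = 9.2e-08), and Cd22, an inhibitory co-receptor, 11.5 ± 3.18 and 34.7 ± 2.68 in the same order (-1.54, adjusted p = 9.5e-06). Siglecg, another inhibitory receptor, fell by 0.96 (adjusted p = 0.00038) and the kinase gene Blk by 0.80 (adjusted p = 1.6e-05). None of the 3 rises, in Blnk, Cr2 and Prkd2, held in every alternative.

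In GL7+ cells 7 of the 13 fell and 2 rose, where 7.71% and 5.81% of all genes did. Fcer2a had 20.9 ± 1.02 RPKM with GSK-J4 and 44.4 ± 1.58 with DMSO (-1.05, adjusted p = 7.2e-05), and Cd55, a complement regulator, fell by 0.54 (adjusted p = 0.0012), Cd72, a B cell co-receptor, by 0.72 (adjusted p = 0.0038), while Cr2, the complement receptor CD21, rose by 0.51 (adjusted p = 0.0015). Of the 7 falls 3 (Fcer2a, Cd72 and Cd55) held in every alternative. List medians were -0.05 in CD138+ and -0.25 in GL7+ cells. For the difference between fractions 3 of the 13 were called lower (Blk, Cd22 and Fcer2a) and 2 higher (Cd55 and Prkd2). Over all genes these shares were 0.644% and 0.322%. None of these calls held in every alternative.

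Of 10 genes that PAX5 is known to repress, 3 fell in CD138+ cells with GSK-J4 and none rose by adjusted p (voom and an unadjusted p under 0.05 each gave 1 gene as higher). Flt3, a receptor of progenitors that is also on the dendritic cell list, had 5.64 ± 0.735 RPKM with GSK-J4 and 9.78 ± 0.583 with DMSO (log2 change -0.70, adjusted p = 0.0022), the T cell co-receptor gene Cd28 fell by 0.58 (adjusted p = 0.0033) and Lmo2, a cofactor of progenitors, by 0.40 (adjusted p = 0.0013). In GL7+ cells 3 rose, the chemokine gene Ccl3 by 1.20 (adjusted p = 0.0021), Jchain, which links antibody units, by 0.40 (adjusted p = 0.0053) and Xbp1, and 2 fell, Flt3 by 0.58 (adjusted p = 0.0082) and Lmo2 by 0.27 (adjusted p = 0.016). Lmo2 was lost there without GL7+ GSK-J4 replicate 2 or GL7+ DMSO replicate 3 (adjusted p = 0.081 and 0.072). Xbp1 and Jchain also count as plasma cell genes.

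**Figure D4:**
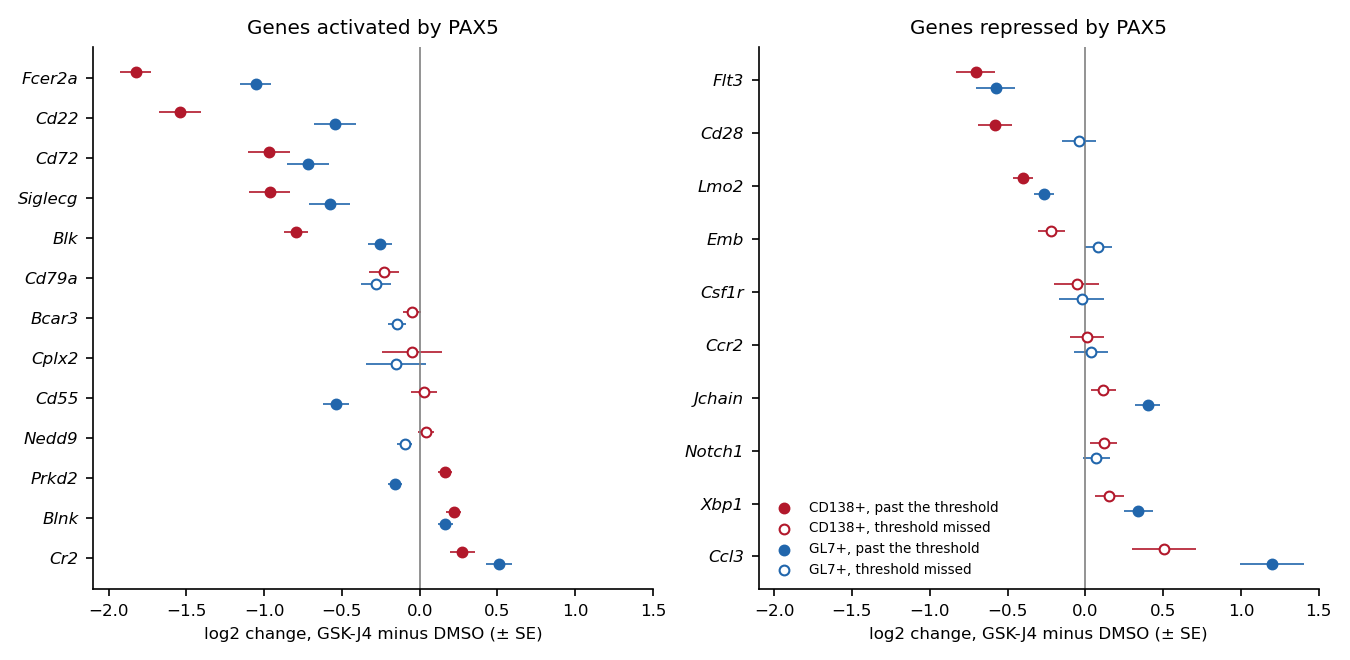
Change with GSK-J4 against DMSO on the log2(RPKM + 1) scale for 13 genes known to be activated (left) and 10 known to be repressed (right) by PAX5, in CD138+ (red, upper) and GL7+ cells (blue, lower), with 1 SE. Filled points have an adjusted p under 0.05. Fcer2a lies at -1.83 and -1.05, and Ccl3, open in CD138+ cells, at 1.20 in GL7+ cells.

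The 4 plasma cell regulators Prdm1, Irf4, Xbp1 and Sdc1 all rose in GL7+ cells with GSK-J4, and none passed in CD138+ cells with limma, where 0 of them reached an unadjusted p under 0.05 but voom called 2. Prdm1 had 49.2 ± 2.12 RPKM in GL7+ GSK-J4 and 37.2 ± 2.07 in GL7+ DMSO cells (log2 change 0.40, adjusted p = 0.021), and Sdc1 2.88 ± 0.496 and 1.37 ± 0.152 in the same order (0.71, adjusted p = 0.019). Irf4 alone held in every alternative. Prdm1 lost its call with a pseudocount of 0.1 (adjusted p = 0.087) and without GL7+ GSK-J4 replicate 2 or GL7+ DMSO replicate 2 or 3 (0.082, 0.067 and 0.072). Sdc1 lost it without GL7+ GSK-J4 replicate 2 or 3 or GL7+ DMSO replicate 1 or 3 (0.081, 0.065, 0.064 and 0.066), and Xbp1 (0.34, adjusted p = 0.029) without the filter (0.06) or the same 4 libraries (0.11, 0.096, 0.088 and 0.1). For the difference between fractions none of the 4 passed. Against naive cells, GL7+ DMSO cells had Irf4 and Sdc1 called lower and Prdm1 and Xbp1 called higher. Sdc1 averaged 3.13 RPKM in naive cells, so its level in GL7+ GSK-J4 cells was not above the naive mean.

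By their 5 group means on the log2 scale, each centred on its own mean, Ebf1 and Bach2 were the closest pair of members, with a Euclidean distance of 0.29, and the next, Bach2 and Ets1, lay at 0.97. Outside the members, the 2 nearest genes were Cyb561a3 and Ceacam1 for Pax5 (0.22 and 0.33), Gmip and Gm614 for Ebf1 (0.12 and 0.15), and B3gnt5 and Evl for Spib (0.53 and 0.55). They were Lck and Rgs18 for Bach2 (0.18 and 0.19), Nfkbid and S100a4 for Bcl6 (0.31 each) and Grap and Swap70 for Irf8 (0.15 and 0.28). Bcl2a1b, whose reads can be shared with near-identical copies, and Ncf1 were nearest to Id3 (0.31 and 0.36), Micu2 and Mark3 to Tcf3 (0.02 and 0.04), and Rgl2 and Trim65 to Ets1 (0.09 each). Lck, a T cell marker here, averaged 3.81 RPKM in GL7+ GSK-J4, 3.18 in GL7+ DMSO and 15.7 in naive cells, and was under 1 RPKM in both CD138+ groups. These likenesses over 5 group means are descriptions, with no test.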

How the data were processed

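Messenger RNA of mouse B cells was measured in 15 libraries made with the KAPA mRNA HyperPrep kit, per the labels' protocols. The authors deposited RPKM per gene with a gene length, per the file headers. TopHat2 and mm9 are named in the submitters' processing notes. Not given in the sources used here were the counting tool, the annotation and a strand setting, so reads of a gene and of an antisense or overlapping partner are not separable. RPKM times length in kilobases summed to 1000000 per library, and low values (up to 20 reads) came out as whole reads within 0.1 read in 99.9 to 100% of cases, which gave the depths. Reads without molecular identifiers are not independent molecules.

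A gene was tested if 3 or more libraries had 1 RPKM or more, which left 10866. Values were taken as log2(RPKM + 1), and limma 3.58.1 (R 4.3.3) fitted all 15 libraries together with a variance trend. Benjamini-Hochberg adjustment ran over these genes, with a threshold of 0.05. Libraries of a group come from separate mice, per the labels, which do not cover CD138+ GSK-J4 replicate 4. The members and gene lists were chosen with earlier results of these data known. The text names all members, the 2 nearest genes of each (at least 5 RPKM in their highest group), 4 plasma cell regulators and up to 4 genes per list with the smallest adjusted p, and other genes named beside a small count, and Ms4a1, were chosen after their values were seen.

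The labels give a mouse for each replicate number, which pairs the samples. The median correlation of deviations from the group mean was 0.07 within a mouse (-0.04 to 0.19, 26 pairs) and -0.03 in the other 64 pairs. Those 64 include the pairs of CD138+ GSK-J4 replicate 4, whose mouse is not known. Deviations cancel out within a group, so these medians are not independent of each other. Alternatives were a pseudocount of 0.1, no filter, quantile normalization, median-of-ratios scaling, the mouse as a block, only the groups of the contrast, limma voom on recovered reads, and leaving out each library. In the block fit CD138+ GSK-J4 replicate 4, with no known mouse, formed its own block and dropped out. Block results that use the CD138+ GSK-J4 group therefore rest on its other libraries alone. One gene of these lists is not reported here. Of 21761 identifiers 21615 matched a RefSeq table of GRCm38.p6, used for names. Figures were drawn with matplotlib 3.10.9.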

Additional observations from a re-analysis of the deposited data

Results flagged for a closer look

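The change with GSK-J4 differed between the fractions for 3 members by a test of the difference itself, CD138+ minus GL7+ cells. Spib had a difference of -1.18 on the log2 scale, with changes of -1.57 in CD138+ and -0.39 in GL7+ cells. Id3 had a difference of -1.002, with changes of -1.45 and -0.45. Pax5 had a difference of -0.72, with changes of -0.99 and -0.28. With mice as blocks Spib was still called, but not Pax5 (adjusted p = 0.067) or Id3 (0.063). The block fit also lost CD138+ GSK-J4 replicate 4, which has no known mouse. Without CD138+ GSK-J4 replicate 2, CD138+ DMSO replicate 1 or GL7+ GSK-J4 replicate 3, 0 of the 3 were called.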

How the results depend on the processing

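Over all members and comparisons, 904 of 945 values without single libraries and 418 of 441 under other settings kept their direction and their side of the threshold. Many of the 945 left out a library from outside the comparison, which can change the p-value but not the estimate or its direction. Members called numbered 6 in CD138+ cells with GSK-J4 (4 to 6 without single libraries, 4 to 6 otherwise). In GL7+ cells they numbered 3, from 1 without GL7+ GSK-J4 replicate 2 to 5 without CD138+ GSK-J4 replicate 1, and 6 each in the fit of only the contrast's groups and with voom. The difference between fractions had 3, with 1 under the replicate block, 0 without CD138+ GSK-J4 replicate 2, CD138+ DMSO replicate 1 or GL7+ GSK-J4 replicate 3, 1 without GL7+ DMSO replicate 1 or 3, and at most 3. CD138+ against GL7+ had 8 under GSK-J4 (7 with median-of-ratios scaling) and 8 under DMSO (8 throughout), GL7+ against naive had 8 (8 to 9) and CD138+ against naive 9 (8 to 9). The replicate block changed no member's call other than those of Ebf1, Ets1, Spib, Pax5 and Id3 given above.

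Signs turned for Tcf3 with median-of-ratios scaling (0.0125 under GSK-J4 and 0.0394 under DMSO, CD138+ against GL7+) and with quantile normalization against naive cells (-0.0892 in GL7+, -0.107 in CD138+), and for Irf8 with quantile normalization (-0.201, GL7+ against naive). Without single libraries Bach2 ran from -0.0714 to 0.0542 in GL7+ cells with GSK-J4 and the difference for Tcf3 from -0.0627 to 0.0354. The cause was not tested.

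Over all genes, 1437 called in CD138+ cells became 927 with the block, 827 without CD138+ DMSO replicate 1 or 2, 866 without replicate 3 and 2201 without naive replicate 2. The 1469 in GL7+ cells became 2614 with voom, 743 and 819 without GL7+ GSK-J4 replicate 2 and 3, 790 and 841 without GL7+ DMSO replicate 1 and 3, and 2258 without naive replicate 2. The 105 of the difference became 53 without the filter, 32 with the block, 418 in the fit of 4 groups and 430 with voom, and ran from 18 without GL7+ GSK-J4 replicate 3 to 361 without naive replicate 2. The counts of 927 and 32 come from the block fit, which lost CD138+ GSK-J4 replicate 4. Depth limits Id3 and Bcl6 most, which rested on 14 to 16 and 31 to 39 reads in CD138+ GSK-J4 libraries.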
